A study of Mus musculus and Rattus norvegicus with 28 samples.

Results

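The genes described here are 6 matrix metalloproteinases (MMPs: Mmp2, Mmp3, Mmp9, Mmp11, Mmp13 and Mmp14) and the 4 tissue inhibitors of metalloproteinases (TIMPs: Timp1, Timp2, Timp3 and Timp4), 10 of the 55450 genes in the mouse expression tables. They were taken by gene symbol, and 9 of the 10 were found among the 32623 genes of the rat tables, where no gene carried the symbol Mmp11. The members were chosen with earlier results of these data known. Mmp3 was chosen by its measured rise at postnatal day 7 (P7), so its mouse levels are given as a description, and a test is given only for P3 against P1. The mouse samples were freshly isolated left ventricular cells of C57BL/6 mice, labelled cardiomyocytes, at E18.5 (before birth) and at P1, P3 and P7, with 2 RNA-seq and 2 ATAC-seq libraries at each time point. The rat samples were ventricular cells of Sprague Dawley pups at P1 that were plated and then given DMSO, the solvent, or 100 nM TSA (trichostatin A, a histone deacetylase inhibitor), with 3 RNA-seq libraries each. In both species, cells that attached early to uncoated dishes were discarded during isolation. The labels name no transgene or deletion in any group, and they do not give the number of animals behind a library, so p-values measure the spread between these samples.

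MMPs are zinc enzymes that cut proteins of the extracellular matrix, and most are secreted as inactive precursors. TIMPs are small secreted proteins that block the active site of MMPs, and they differ in the enzymes they bind best. In the heart, both are made to a large extent by fibroblasts and other non-muscle cells, and their balance is known to bear on collagen turnover during growth and after injury. Mmp3 (stromelysin-1) cuts proteoglycans and activates other MMPs, Mmp2 and Mmp9 are gelatinases, Mmp13 is a collagenase, Mmp11 (stromelysin-3) is activated inside the cell by furin, and Mmp14 is a membrane-bound enzyme that activates the precursor of Mmp2 together with Timp2.

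RefSeq promoter sequences (GRCm38.p6) were matched for 8 of the 10 genes. The 250 bases before the start site are printed for 4 of them. They show how the promoters of Mmp3 and Mmp13 resemble each other and differ from those of Mmp14 and Timp1. Mmp3 had the largest rise of the members at P7, while the change of Mmp13 did not pass the test. Capitals mark TGANTCA, the core that AP1 (Jun and Fos) proteins bind, TATAAA, and GGGCGG or its reverse complement, each searched on both strands. The stretches lie at chr9:7445572-7445821 (plus strand) for Mmp3, chr9:7272264-7272513 (plus strand) for Mmp13, chr14:54431348-54431597 (plus strand) for Mmp14 and chrX:20869916-20870165 (plus strand) for Timp1.
Mmp3: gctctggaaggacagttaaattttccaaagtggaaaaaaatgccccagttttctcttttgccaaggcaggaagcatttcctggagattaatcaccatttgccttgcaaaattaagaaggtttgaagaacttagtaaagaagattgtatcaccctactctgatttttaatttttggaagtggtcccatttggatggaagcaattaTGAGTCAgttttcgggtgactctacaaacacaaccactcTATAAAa
Mmp13: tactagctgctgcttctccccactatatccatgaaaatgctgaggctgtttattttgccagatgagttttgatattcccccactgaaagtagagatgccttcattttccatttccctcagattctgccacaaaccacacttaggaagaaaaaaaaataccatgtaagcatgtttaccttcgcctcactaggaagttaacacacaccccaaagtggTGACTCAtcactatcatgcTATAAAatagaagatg
Mmp14: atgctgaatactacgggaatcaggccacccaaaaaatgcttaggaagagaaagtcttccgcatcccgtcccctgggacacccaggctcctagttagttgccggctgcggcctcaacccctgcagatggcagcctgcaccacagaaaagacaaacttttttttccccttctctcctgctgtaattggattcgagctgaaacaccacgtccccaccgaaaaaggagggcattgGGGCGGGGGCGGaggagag
Timp1: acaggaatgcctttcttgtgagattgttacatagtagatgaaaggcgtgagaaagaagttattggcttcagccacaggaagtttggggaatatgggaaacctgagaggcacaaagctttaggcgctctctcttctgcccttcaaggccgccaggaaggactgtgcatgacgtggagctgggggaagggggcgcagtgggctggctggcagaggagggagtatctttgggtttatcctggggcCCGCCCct

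Mmp3 and Mmp13 each held 1 TGANTCA match followed by TATAAA close to the start. In Mmp3 the AP1 letters lay at bases −46 to −40 from the start site, and in Mmp13 at −35 to −29. Of 32851 RefSeq promoters of the same length, 6.75% held TGANTCA, 12.4% held TATAAA and 1.21% held both. The letters were chosen after the member sequences had been read, so these shares are no test of the matches. Mmp14 held 2 GGGCGG matches and Timp1 held 1 on the minus strand, and matches were also found in Mmp11 (2), Timp2 (1) and Timp3 (1), beside 32.7% of all promoters. The Timp4 stretch held none of these letters. A match is a description of the letters in this window and not a measured binding site.

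Before the members, the cell labels were checked against marker genes. The summed level of 12 cardiomyocyte genes was 20641 to 25478 FPKM (fragments per kilobase of transcript and total fragments) in the E18.5 libraries, 9877 to 15974 in those of P1, 5949 to 6896 in those of P3 and 731.4 to 1738 in those of P7. All 12 were lower at P7 than at E18.5, with a median log2 fold change (log2 FC) of −3.72. The summed level of 12 fibroblast genes rose over the same days, from 423.4 to 426.5 FPKM before birth through 997 to 1112 (P1) and 1297 to 1309 (P3) to 2408 to 2968 (P7), and 10 of the 12 were called higher at P7. No marker of either list was at 0 at any time point. The 7 erythroid genes fell from between 29046 and 35395 FPKM at E18.5 to between 4.70 and 41.0 at the later time points. Estimated fragments assigned to transcripts numbered 12900000 to 16500000 per mouse library and 13600000 to 18600000 per rat library. Every mouse value below therefore comes from bulk RNA that held markers of several cell types, and the marker levels moved with age. In such samples fewer cells of a type and less RNA per cell cannot be told apart. The study itself reported high purity of the isolated cells by staining for cardiac troponin T, also at P7. It also reported that the promoters of Dcn and Pecam1 were not accessible in them.

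Of the 9 mouse members other than Mmp3, the same 5 genes, Mmp2, Mmp14, Timp1, Timp2 and Timp3, were called higher than before birth in each postnatal group, and none was called lower. A gene was called when limma gave a Benjamini-Hochberg adjusted p under 0.05 and a log2 FC above 1 in size on log2(FPKM + 1), a scale that understates the changes of low genes. The 3 comparisons share the E18.5 libraries. Among all 13979 tested genes, 10.1% were called higher and 6.06% lower in P1, 13.0% and 8.88% in P3, and 15.4% and 12.3% in P7 (16.2%, 21.9% and 27.7% in all). The 5 members were 5 of 8 tested, since Timp4 did not pass the filter on low values. The median log2 FC of these 8 members was 1.62, 1.77 and 1.74 (P1, P3 and P7 in turn), beside 0.15, 0.16 and 0.14 for all tested genes. The members were chosen with earlier results of these data known, so these counts and medians are no test of the members as a set. The median over all tested genes was 0.38, 0.41 and 0.40 with TPM and 0.04, 0.04 and 0.05 with median-of-ratios size factors. The 5 rises stood under each of these scalings, although that of Timp3 at P7 came down to 1.00 with size factors.

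Mmp3 was close to absent before birth and had the highest mean of the members at P7, although Timp1 was above it in P7 replicate 1. Its level was 0.151 and 0.0649 FPKM at E18.5, which corresponds to about 4 and 2 fragments, and the P1 libraries held 18.6 and 12.5, the P3 libraries 58.8 and 62.7 and the P7 libraries 403 and 594. Each time point lay above the one before without overlap. Against E18.5 the differences for P1, P3 and P7 were 3.88, 5.80 and 8.79 on the log2(FPKM + 1) scale. No linear fold is given against E18.5 because so few fragments stood behind that level. From P1 to P7 the mean level rose 32.1-fold, and from P3 to P7 it rose 8.20-fold. The step that did not enter the choice of Mmp3, P3 against P1, was a log2 FC of 1.93 (SE 0.23), and it missed the threshold in limma (adjusted p 0.0586). Only 0.0143% of all genes, 2 genes, were called by limma in that comparison and no member was, while 1577 genes had an unadjusted p under 0.05. Without P1 replicate 1 the step was called (log2 FC 2.20, adjusted p 0.0311). Its single annotated transcript (chromosome 9, mm10 7445822 to 7455975, plus strand) carried all of the level in each library.

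**Figure D1:**
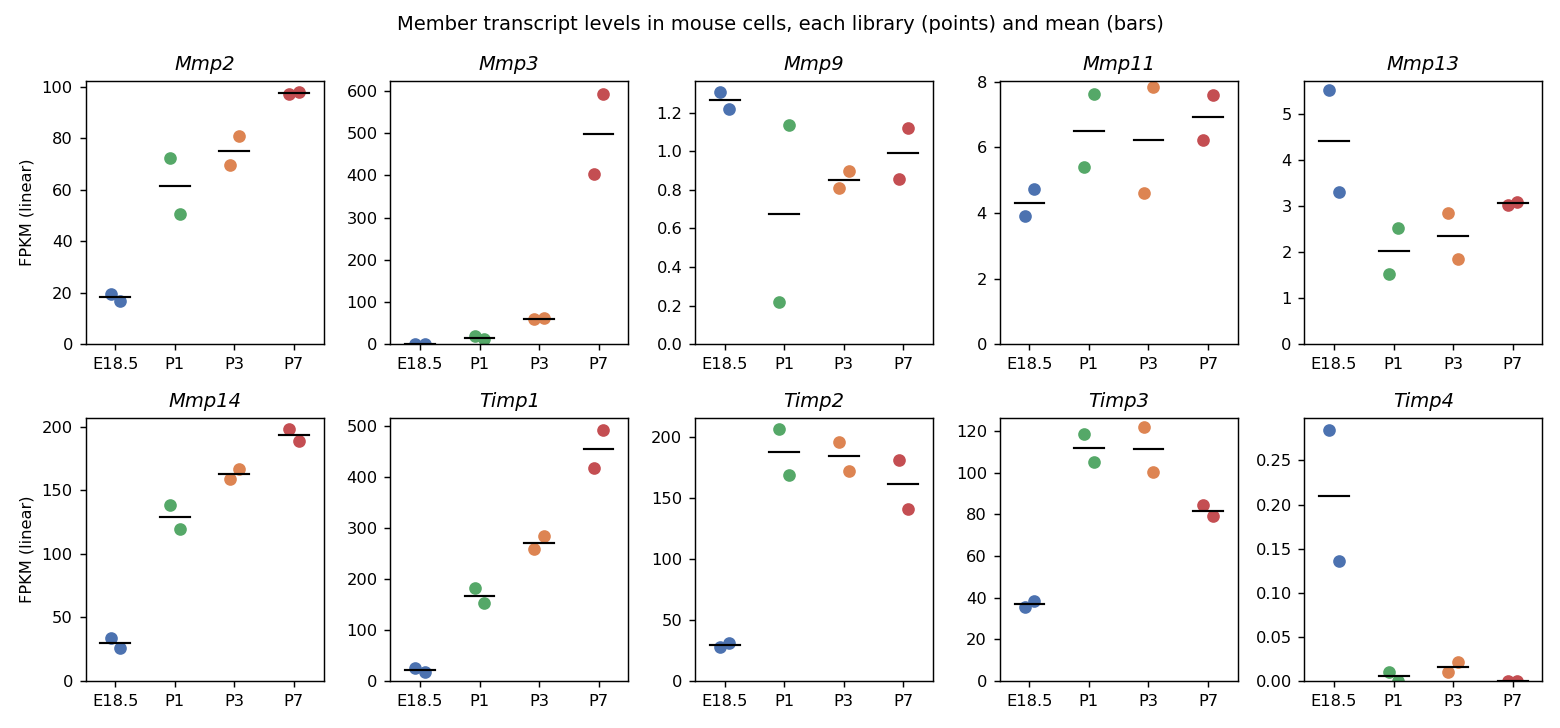
FPKM (linear axis, starting at 0) of each of the 10 genes in mouse cells by time point; points are the 2 libraries and bars their mean. Mmp3 goes from under 0.2 FPKM at E18.5 to 403 and 594 at P7, Mmp2, Mmp14 and Timp1 climb throughout, Timp2 and Timp3 rise by P1 and are level or lower afterwards, and Timp4 stays under 0.3.

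Among the gelatinases, Mmp2 was the abundant one. Its libraries held 19.6 and 16.6 FPKM before birth, then 72.2 and 50.4 (P1), 69.5 and 80.8 (P3) and 97.1 and 98.1 (P7). The E18.5 libraries lay below all others, and those of P1 and P3 overlapped. The rises over E18.5 were 1.69, 1.99 and 2.37 (log2 FC, SE 0.18) for P1, P3 and P7, with adjusted p in limma of 0.000377, 0.000123 and 3.34e-05. Mmp9, the other gelatinase, which is best known from neutrophils and macrophages, stayed near 1 FPKM, with 1.31 and 1.22 in the E18.5 libraries, 0.218 and 1.14 in P1, 0.808 and 0.899 in P3, and 0.856 and 1.12 in P7. Against E18.5 its log2 FC values were −0.49, −0.29 and −0.19 (P1, P3 and P7, SE 0.25), none of which passed the test, and the 95% confidence interval at P7 ran from −0.78 to 0.40. About 12.5 to 67.4 fragments stood behind each Mmp9 value, the lowest in P1 replicate 1.

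Mmp14, the membrane-type MMP, had 34.1 and 25.5 FPKM in the E18.5 libraries, 139 and 119 in those of P1, 159 and 166 in those of P3, and 198 and 189 in those of P7. The 2 libraries of each time point lay above those of the time point before. It rose over E18.5 by 2.09, 2.42 and 2.67 on the log2 scale for P1, P3 and P7 (SE 0.15, adjusted p in limma 8.31e-05, 3.12e-05 and 1.22e-05). In linear terms the mean at P7 was 6.49 times that at E18.5, beside 5.38 times for Mmp2, the enzyme whose precursor it activates.

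Mmp11 and Mmp13 were low and did not pass the test at any time point. Mmp11 had 3.90 and 4.73 FPKM at E18.5 and 6.24 and 7.59 at P7, with P1 and P3 between 4.62 and 7.82 (log2 FC at P7 0.57, SE 0.25, 95% interval −0.01 to 1.15). Its exons share 155 bases with Chchd10 on the opposite strand, a gene at 15.3 to 296.1 FPKM, and without strand information in the libraries reads of the shared bases cannot be told apart. Mmp13 went from 5.51 and 3.31 FPKM before birth to 1.51 and 2.52 (P1), 2.86 and 1.86 (P3) and 3.03 and 3.08 (P7). At P1 its libraries lay below those of E18.5 and its log2 FC was −0.83 (SE 0.26, adjusted p in limma 0.0353), a change under the fold threshold. With a pseudocount of 0.1 that value was −1.09 and passed. Mmp3 and Mmp13, the pair with an AP1 match and a TATA match in the printed promoters, thus had levels at P7 of 498 ± 135 and 3.05 ± 0.0378 FPKM (mean ± SD, n = 2).

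Timp1 had the largest rise of the members that could be tested. The E18.5 libraries held 24.3 and 18.1 FPKM, those of P1 181 and 153, those of P3 257 and 284, and those of P7 417 and 492, with no overlap between time points. For P1, P3 and P7 against E18.5 its log2 FC was 2.93, 3.63 and 4.37 (SE 0.17), and limma gave adjusted p values of 4.04e-05, 1.21e-05 and 2.93e-06. In linear terms the P7 mean was 21.4 times the E18.5 mean. Among the 8 tested members other than Mmp3, Timp1 was also the only 1 called between postnatal time points. Its log2 FC was 1.44 for P7 against P1 (SE 0.17, adjusted p in limma 0.00133), in a comparison that called 8.91% of all genes, 3.45% higher and 5.46% lower. For P7 against P3, which called 3.55% of all genes (1.35% higher and 2.20% lower), limma called none of the 8 tested members other than Mmp3 (2589 genes had an unadjusted p under 0.05), and Timp1 had a log2 FC of 0.74 (adjusted p 0.048), under the fold threshold.

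Timp2, the partner of Mmp14 in Mmp2 activation, and Timp3, which is held in the matrix, had risen by P1 and did not climb further. Timp2 had 28.1 and 31.5 FPKM in the E18.5 libraries, and 207 and 169 (P1), 196 and 173 (P3) and 182 and 141 (P7) after birth. All postnatal libraries lay above E18.5 and they overlapped among themselves. Its postnatal rises over E18.5 were 2.61, 2.59 and 2.39 (log2 FC, SE 0.17, adjusted p in limma 4.93e-05, 3.12e-05 and 2.47e-05). Timp3 started at 35.7 and 38.5 FPKM, and reached 119 and 105 (P1) and 122 and 100.2 (P3) before 84.6 and 79.0 (P7). The rises of Timp3 were 1.56, 1.55 and 1.12 (log2 FC, SE 0.14, adjusted p in limma 0.000163, 0.000106 and 0.000266). The P7 libraries of Timp3 lay below those of P1, with a log2 FC of −0.44 (SE 0.14) that did not pass the test (adjusted p 0.0579). Mmp2 and Mmp14 had the opposite sign for P7 against P1, 0.68 and 0.59, with adjusted p of 0.0352 and 0.0344 but under the fold threshold.

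Timp4, the inhibitor known for its expression in adult heart muscle, was close to absent. The E18.5 libraries listed it at 0.284 and 0.136 FPKM, about 16 and 11 fragments, those of P1 at 0.0101 and 0, those of P3 at 0.00973 and 0.0209, and both P7 libraries at 0. It was not tested with the filter on low values. Timp1, Timp3 and Timp4 lie whole inside the synapsin genes Syn1, Syn3 and Syn2 on the opposite strand. The synapsins, proteins of synaptic vesicles in neurons, were between 0.0468 and 0.304 FPKM in all mouse libraries, low beside Timp1 and Timp3 but not beside Timp4, whose exons share 90 bases with Syn2.

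**Figure D2:**
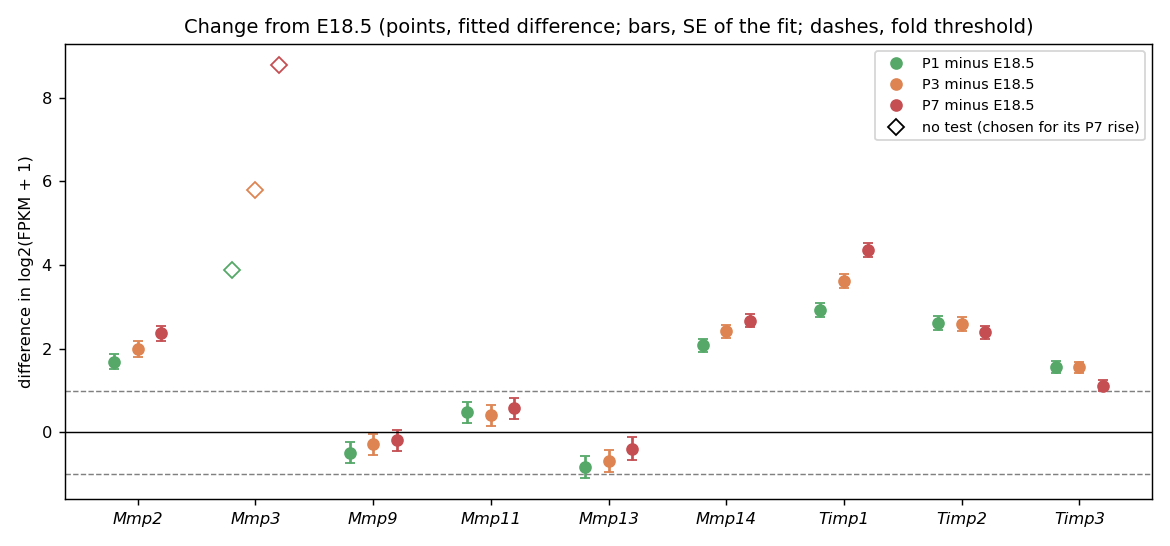
Difference in log2(FPKM + 1) from E18.5 at P1, P3 and P7 for 9 genes in mouse cells; bars are the SE of the limma fit, dashed lines the fold threshold of 1, and open diamonds mark Mmp3, which has no test here. Mmp2, Mmp14 and Timp1 step up from P1 to P7, Timp2 and Timp3 step down slightly, and the points of Mmp9, Mmp11 and Mmp13 stay within the dashed lines.

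Since FPKM is per length, levels of different genes can be set side by side. At E18.5 the order of mean FPKM was Timp3 (37.1), Timp2 and Mmp14 (29.8 each), Timp1 (21.2), Mmp2 (18.1), Mmp13 (4.41), Mmp11 (4.32), Mmp9 (1.26), Timp4 (0.210) and Mmp3 (0.108). At P7 it was Mmp3 (498), Timp1 (454), Mmp14 (193.5), Timp2 (161), Mmp2 (97.6), Timp3 (81.8), Mmp11 (6.91), Mmp13 (3.05) and Mmp9 (0.989), with Timp4 at 0. The libraries of Mmp3 and Timp1 overlapped at P7, while those of Mmp14 lay above those of Timp2 and those of Timp2 above those of Mmp2.

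In FPKM, the summed TIMPs were 88.4 and 88.2 before birth, then 507 and 427 (P1), 575 and 557 (P3) and 683 and 712 (P7). The summed MMPs stood at 64.6 and 51.5, 237 and 193, 296 and 320, and 708 and 892 FPKM at the same time points. The ratio of summed MMPs to summed TIMPs was 0.731 and 0.583 before birth, 0.467 and 0.452 in P1, 0.514 and 0.575 in P3, and 1.04 and 1.25 in P7. Thus the ratio of these members was below 1 in the 6 libraries up to P3 and above 1 in both P7 libraries. It leaves out 17 further MMP genes, which summed to 35.7 to 39.0 FPKM at E18.5 and 129 to 139 at P7. Which libraries pass 1 therefore depends on the MMPs counted. Mmp3 was chosen for its P7 rise, so the P7 ratio and the share of Mmp3 follow in part from that choice. Without Mmp3 the ratio was 0.447 and 0.419 at P7, close to the 0.411 to 0.463 of P1 and P3 without Mmp3. Timp1 made up 27.5% and 20.5% of summed TIMP at E18.5 and 61.0% and 69.1% at P7, while Timp3 went from 40.4% and 43.6% to 12.4% and 11.1%. Mmp3 made up 0.234% and 0.126% of summed MMP at E18.5 and 56.9% and 66.5% at P7. These sums count transcripts of the chosen members and not active enzyme.

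**Figure D3:**
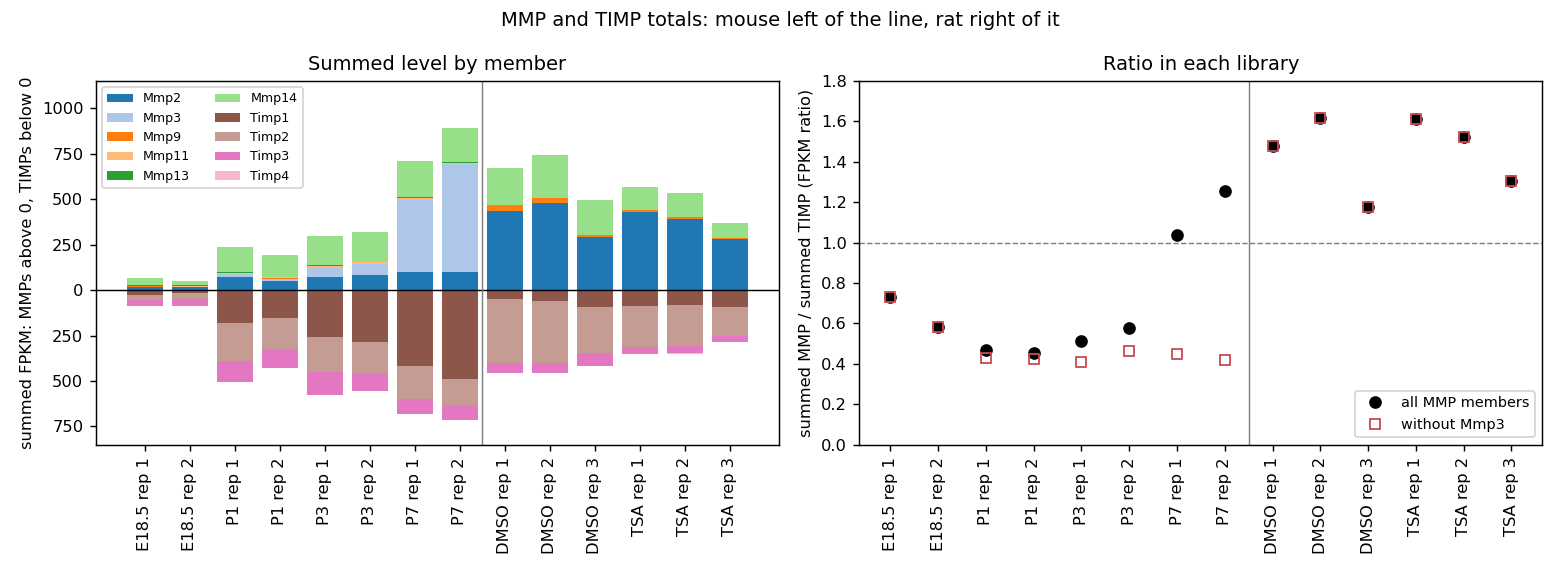
Left, FPKM of each member stacked in every library, MMPs above 0 and TIMPs below; right, the ratio of summed MMP to summed TIMP FPKM with all MMP members (black) and without Mmp3 (open squares), mouse left of the vertical line and rat right of it. In mouse the ratio of these members passes 1 only in the P7 libraries (1.04 and 1.25), and only with Mmp3 included. Mmp3 was chosen for its P7 rise, and MMP genes outside the members are not counted.

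The other genes of the protease system were taken from lists, chosen with earlier results of these data known. Their counts at P7 stand beside 15.4% of all tested genes called higher and 12.3% called lower than at E18.5. Of 17 further MMP genes, 10 were tested, and 7 were called higher and 1 lower at P7 than at E18.5 (median log2 FC 1.83). The largest rises were those of Mmp12, the macrophage elastase (log2 FC 5.31), Mmp19 (3.20) and Mmp23 (2.22), and the membrane-bound Mmp15 fell from a mean of 24.1 to 1.09 FPKM (log2 FC −3.59). Of 21 tested ADAM and ADAMTS genes, 12 were called higher, led by Adam12 (3.72), Adamts2 (3.66) and Adamts5 (2.73), and Adamts19 was the 1 called lower (−1.94). Among 11 genes that control MMPs at the cell surface, 6 were called higher and none lower, with Lrp1, a receptor that clears MMP and TIMP complexes, at 3.56, Thbs1 at 2.21 and Thbs2 at 1.81.

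Of 17 genes for matrix proteins that MMPs cut, 14 were called higher at P7 and none lower (median log2 FC 2.59), beside 15.4% of all tested genes called higher, with Spp1 (osteopontin, 4.38), Bgn (biglycan, 4.17) and Col1a1 (3.54) the largest. The 3 that were not called were Lamb1 (0.91), Acan (0.93) and Eln (−0.16), which are named after their values were seen. Of 7 tested AP1 genes, Fosb (−4.58), Fos (−4.17) and Jun (−1.96) were called lower at P7 and Fosl1 (1.17) was called higher. Of 6 tested cytokine genes known to induce MMPs, Il6 (3.23), Lif (2.25) and Il1a (1.00) were called higher and Il1b (−1.28) lower. Among 8 genes induced by stress and cell isolation, 6 were called lower at P7, with Hspa1a (−4.69), Atf3 (−3.75) and Hspa1b (−3.69) the largest falls.

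Markers of other cells were read beside these values. At P7, smooth muscle and pericyte genes summed to between 1671 and 1879 FPKM, against 431.0 to 559.6 at E18.5. Of the 10 genes of this list 5 were called higher and 3 lower (median log2 FC 0.85), so the list did not move as 1. Macrophage genes summed to 50.6 to 54.3 FPKM before birth, and to 118 to 158 (P1), 155 to 193 (P3) and 113 to 133 (P7) after it. Lyz2 was called higher at P7 and C1qb lower, and Cd163 was at 0 at P3 and P7. Neutrophil genes summed to under 50 FPKM in every library, and Ly6g and Retnlg were at 0 from P1. Of 10 endothelial genes, Emcn was called higher at P7 and Cldn5 and Kdr lower. Of 8 epicardial and mesothelial genes, 3 were called higher (Lrrn4, Tcf21 and Upk1b). The part of the fibroblast, smooth muscle and macrophage markers in the MMP and TIMP rises was not tested.

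Likeness was measured as Pearson's r of log2(FPKM + 1) over the 8 mouse libraries, which share time points, and the 3 closest genes are given for each member as a description. For Mmp3 they were Ephb2, Slc1a6 and Kdelr3 (r 0.997, 0.997 and 0.996). For Mmp2 they were Ppic, Hgsnat and Gng12 (0.999, 0.999 and 0.998), and for Mmp14 Lman2, Tm9sf2 and Fam111a (1.00, 0.999 and 0.998). Timp1 was closest to Igfbp7, Tbc1d2b and 9530068E07Rik (0.999, 0.999 and 0.998). Timp2 was closest to Scrn1, Tmem199 and Cyb5r3 (0.998, 0.998 and 0.997), and Timp3 to Acat3, Rpusd1 and Vps33a (0.995, 0.992 and 0.991). The members that were not called had lower values: 0.949, 0.941 and 0.918 for Mmp9 (Gm24201, Gm12276 and Pth1r), 0.972, 0.965 and 0.963 for Mmp11 (4933404O12Rik, Map3k7 and Sec14l1) and 0.956, 0.936 and 0.935 for Mmp13 (Abi2, Crabp2 and Tmem140). No member was among the 3 closest genes of another.

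ATAC-seq marks open chromatin, here as peaks called by MACS2 in each library, and a promoter peak was any peak within 2.5 kb of a transcript start. For E18.5, P1, P3 and P7 in turn, both libraries held one for 3, 1, 7 and 6 members. The shares of all 21951 protein-coding genes were 37.3%, 27.2%, 63.0% and 57.5%. The lists differed in length, from 13149 peaks in E18.5 replicate 1 to 95257 in P3 replicate 1. With the 13149 peaks of highest score from each library the members numbered 3, 0, 1 and 1, beside 35.5%, 20.5%, 24.6% and 29.8% of the genes, and the part of list length in the counts at P3 and P7 cannot be told apart from that of age.

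With the whole lists, Timp1 was the member with a promoter peak in every postnatal library and none before birth. With lists of equal length it was in both libraries of no time point, and the fold enrichment of its P1 peaks stood at percentiles 9.83 and 25.9 of all peaks in those lists. No peak lay there in either E18.5 library, and both libraries held one at P1 (fold enrichment at the summit over background 4.13 and 3.98), P3 (7.18 and 8.39) and P7 (4.99 and 4.30). The strongest summits lay −21 to 45 bases from the start site, and the merged region (chromosome X, 20869264 to 20870392) covers the Timp1 stretch printed above. Of protein-coding genes, 0.811% had this pattern. P1 replicate 2, with 19753 peaks, held no promoter peak of any member but Timp1.

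With the whole lists, Mmp2 and Mmp9 had peaks in all 4 libraries from P3 on and in none before, a pattern of 5.51% of genes. With lists of equal length neither gene had one in both libraries of any time point. At Mmp2 the strongest summits were 52 to 182 bases from the start, with fold enrichments of 8.40 and 6.71 at P3 and 5.42 and 3.54 at P7. At Mmp9, a gene with no rise in its transcripts, the strongest peaks had 7.43 and 7.20 at P3 and 5.26 and 4.72 at P7. Every Mmp9 summit was 911 or more bases before a start, and these were starts of other transcripts than the main one. The main transcript (chromosome 2, start at 164948219) carried 66.3% to 100% of the Mmp9 level. No peak lay within 2.5 kb of its start. Mmp14 had weak peaks at its start in both P3 libraries (3.11 and 2.80) and in P7 replicate 1 (2.38), although its transcripts had risen by P1. Mmp13 held a single peak in P1 replicate 1 and in P3 replicate 1.

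Mmp11, Timp2 and Timp3 had promoter peaks in every library except P1 replicate 2, as did 10.3% of genes. For Mmp11 the E18.5 peaks lay by the starts of other transcripts than its main one. The main transcript (chromosome 10, start at 75932502) carried 63.6% to 94.5% of the Mmp11 level. No E18.5 peak lay within 2.5 kb of that start. For Timp2 the fold enrichment was 6.07 and 5.61 before birth, 5.76 in P1 replicate 1, 4.77 and 6.89 in P3, and 3.66 and 5.23 in P7. Timp2 and Timp3 thus already held peaks at E18.5, when their mean levels were 29.8 and 37.1 FPKM. At Timp3 the 2 E18.5 libraries held theirs at different start sites.

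Mmp3 and Timp4 had no promoter peak in any of the 8 libraries, like 27.9% of genes. Within 20 kb of Mmp3 only 1 peak was found, 16.0 kb downstream of the start in a single P1 library, whereas the gene was at 403 and 594 FPKM at P7. Of 2058 protein-coding genes called higher at P7, 148 (7.19%) had no promoter peak in either P7 library. Outside promoters, both P7 libraries held peaks in the gene body or within 20 kb at 3 regions for Mmp2, 5 for Mmp14, 5 for Timp2, 2 for Timp3, 1 for Mmp9 and 3 for Timp4, and at none for Mmp11, Mmp13 and Timp1.

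**Figure D4:**
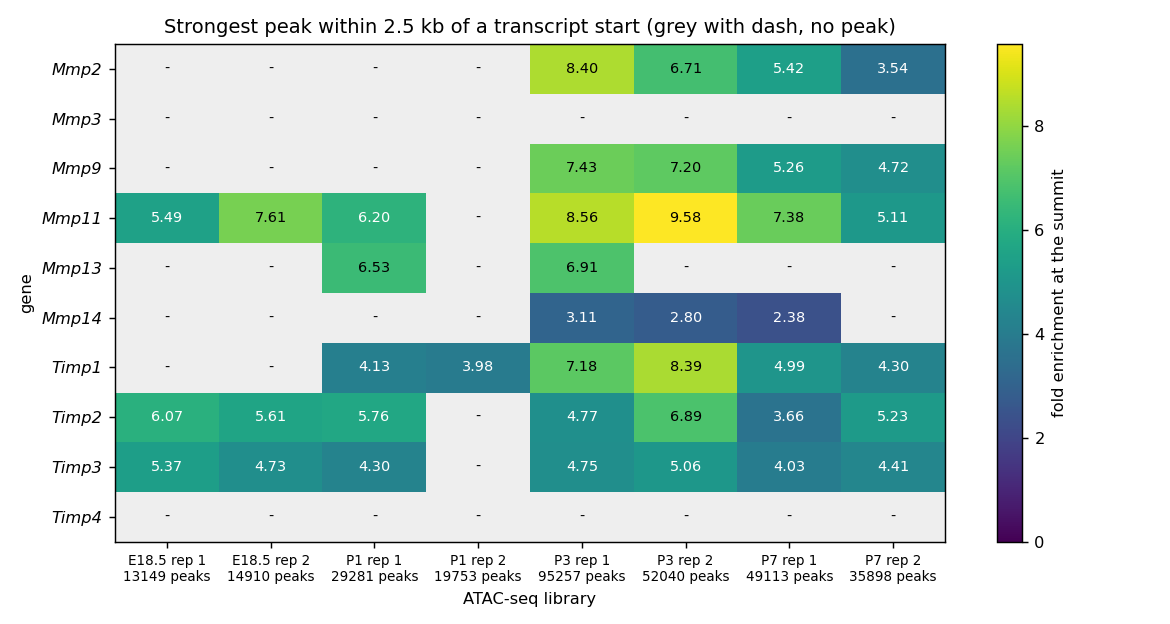
Fold enrichment at the summit of the strongest peak within 2.5 kb of a transcript start, for each gene (rows) and ATAC-seq library (columns, with the number of peaks in the list); grey cells with a dash hold no peak. Timp1 has peaks from P1 on (3.98 to 8.39), Mmp2 and Mmp9 from P3 on, and Mmp3 and Timp4 have none. The P3 and P7 lists are longer. With lists of equal length, Timp1, Mmp2 and Mmp9 have no peak in both libraries of any time point.

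In the study, TSA served to change the activity of MEF2, a transcription factor that histone deacetylases repress, in the rat cells. The order of levels differed from that in mouse. With DMSO the mean FPKM was highest for Mmp2 (401 ± 98.1, SD, n = 3) and Timp2 (318 ± 52.5), followed by Mmp14 (209 ± 22.4), Timp1 (65.9 ± 22.03), Timp3 (59.5 ± 9.75) and Mmp9 (25.05 ± 10.4). Mmp3 was at 0 to 0.162 FPKM in all 6 rat libraries and Mmp13 was listed at 0 in each. The fresh mouse cells of P1 had 72.2 and 50.4 FPKM of Mmp2, 18.6 and 12.5 of Mmp3 and 0.218 and 1.14 of Mmp9. For the rat cells P1 is the age at isolation, and they were kept in culture before and during treatment. Species, culture, time since isolation and tables differ, and no test was made.

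With TSA, none of the 6 members that could be tested was called, beside 2.13% of the 13625 tested genes (1.81% higher and 0.316% lower). At an unadjusted p under 0.05, 2699 genes passed, and so did 4 of the 6 members. In the rat tables the libraries of replicate 3 stood apart, with Spearman correlations of 0.951 and 0.956 with the other DMSO libraries (0.985 between those) and 0.965 with the other TSA libraries (0.986 between those). For 4 of the 6 members every TSA library lay below every DMSO library, beside 10.1% of all tested genes, and for none did every TSA library lie above (17.1% of all genes).

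Mmp9 had the largest difference. It was measured at 31.5, 30.6 and 13.05 FPKM with DMSO and 11.2, 10.1 and 7.72 with TSA, with the third library lowest in each group. The log2 FC was −1.20 (SE 0.33, adjusted p in limma 0.106). The labels state no pairing, but rat libraries with the same replicate number deviated alike, so a replicate block was also fitted. With this block, inferred from the data, the same log2 FC of −1.20 was called (adjusted p in limma 0.0407). That fit called 2.49% of genes, 0.587% lower. Without DMSO replicate 3 it was −1.60 (adjusted p 0.00755, 3.36% of genes called, 1.29% lower), and without replicate 3 of both groups, a choice made after seeing the data, −1.46 (adjusted p 0.00197, 4.03% called, 1.33% lower). The 9 macrophage genes summed to 486.0 to 1027 FPKM with DMSO and 421.0 to 551.9 with TSA, with Cd163 between 0 and 0.168 FPKM throughout, and their part in the Mmp9 difference was not tested. Of the 7 tested MMP genes outside the members, Mmp12 (237 to 62.5 FPKM, log2 FC −1.85, adjusted p 0.036) and Mmp23 (−1.15, adjusted p 0.0399) were called lower.

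Mmp14 was measured at 204, 234 and 190 FPKM with DMSO and 127, 131 and 81.6 with TSA, a log2 FC of −0.90 (SE 0.20, adjusted p in limma 0.057, 95% interval −1.37 to −0.44). Timp2 had 352, 345 and 257.5 FPKM with DMSO and 226.7, 224 and 162 with TSA (log2 FC −0.64, SE 0.18, adjusted p 0.113). Timp3 had 52.5, 55.4 and 70.6 FPKM with DMSO and 39.2, 42.0 and 29.0 with TSA (log2 FC −0.68, SE 0.18, adjusted p 0.0871). None of these passed the test, although their groups did not overlap. The 12 fibroblast genes summed to 6565 to 7373 FPKM with DMSO and 3700 to 6201 with TSA, with Mfap4 at 0 in at least 1 DMSO library (highest DMSO value 203 FPKM), and the 11 cardiomyocyte genes to 8202 to 9189 and 8141 to 10829. The part of the fibroblast genes in these values was not tested.

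Mmp2 and Timp1 overlapped between the groups. Mmp2 had 435, 477 and 290 FPKM with DMSO and 429, 391 and 280 with TSA (log2 FC −0.12, SE 0.24, 95% interval −0.68 to 0.44). Timp1 had 49.1, 57.7 and 90.8 FPKM with DMSO and 85.3, 81.9 and 91.5 with TSA, so it was higher with TSA in replicates 1 and 2 and nearly level in replicate 3 (log2 FC 0.43, SE 0.22, adjusted p in limma 0.338). Timp1 made up 10.8%, 12.6% and 21.7% of summed TIMP with DMSO and 24.2%, 23.5% and 32.3% with TSA. The ratio of summed MMPs to summed TIMPs was 1.48, 1.62 and 1.178 with DMSO and 1.61, 1.52 and 1.304 with TSA, and the groups overlapped.

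Timp4 failed the filter in rat and was not tested with it. It was listed at 0.335, 0.282 and 0.0158 FPKM with DMSO and at 1.33, 1.29 and 0.374 with TSA, and the groups did not overlap. Without a filter its log2 FC was 0.69 (SE 0.23, adjusted p in limma 0.212). Syn2, which holds Timp4 on the opposite strand, was called higher with TSA (1.42 to 1.76 FPKM with DMSO and 4.48 to 6.32 with TSA, log2 FC 1.25, adjusted p in limma 0.0134). Shared exon bases were not counted in rat. Without strand information, reads from any such bases could not be told apart.

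The remaining protease lists were little called with TSA. Plau (urokinase, log2 FC −1.39) was the 1 gene called among 5 tested genes of the plasminogen system, which also activates MMPs, and Eln (elastin, −1.62) the 1 among 16 tested matrix genes, both lower. None of 22 tested ADAM and ADAMTS genes, 10 cell surface control genes, 6 AP1 genes, 3 cytokine genes or 7 stress genes was called. Of the marker lists, Thy1, Cldn5, Rgs5, C1qc and Upk1b were called higher, 1 in each of the fibroblast, endothelial, smooth muscle and pericyte, macrophage and epicardial lists. The median log2 FC of the tested genes in these lists was −0.15, 0.53, −0.01, −0.38 and 0.10 in turn. The single called genes thus do not stand for their lists. The median log2 FC of the 6 tested members was −0.66, beside 0.03 for all tested genes. This is a description, since the members were chosen with earlier results known.

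**Figure D5:**
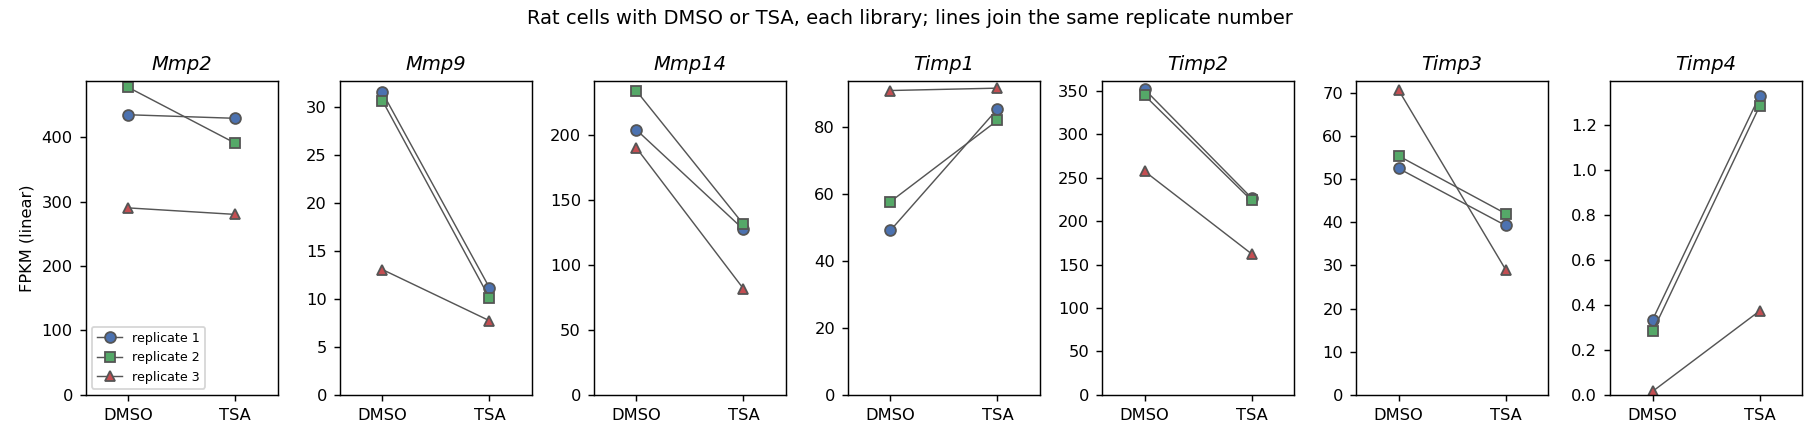
FPKM (linear axes, starting at 0) of 7 members in rat cells given DMSO or TSA; each marker is a library and lines join libraries with the same replicate number. Mmp9, Mmp14, Timp2 and Timp3 go down in every pair, Timp4 goes up in every pair at under 1.4 FPKM, and Mmp2 and Timp1 overlap between the groups.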

How the data were processed

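The authors aligned RNA-seq reads with HISAT2 2.1.0 and quantified transcripts with StringTie on mm10 with GENCODE vM21 (mouse) or Rnor_6.0 with Ensembl annotation (rat), per the file headers. The deposited transcript tables hold FPKM, TPM and coverage. FPKM was summed over the transcripts of a gene. Libraries came from a kit that does not mark strand. For ATAC-seq, MACS2 was run by the authors in each library (mm10, blacklisted regions removed), and the deposited lists give a score, the fold enrichment (a ratio) and the −log10 p-value and −log10 q-value of each peak. The 6 HiChIP samples were not analysed here.

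Comparisons used log2(FPKM + 1) in limma 3.58.1 (R 4.3.3; lmFit, contrasts.fit, eBayes with trend, two-sided), with all 8 mouse libraries in 1 fit and the 6 rat libraries in another, keeping genes that reached 1 FPKM in 2 or more mouse or 3 or more rat libraries. The scripts were tested on simulated data. Fragments were estimated from coverage and length at 300 bases per fragment, and their number limits the precision of low values. Start sites were those of the deposited transcripts. All members are named, with the 3 genes most like each member. The called genes of the 3 largest rises and falls in each list are also named, except in mouse marker lists given only by sums or counts. Members and lists were chosen with earlier results of these data known, and the letters searched in promoters were chosen after the sequences had been read. Deviations of rat libraries with the same replicate number correlated at 0.224, 0.194 and 0.346 across genes, so the numbers were taken as pairs in the replicate block. The labels state no pairing, and replicates 1 and 2 also correlated across numbers (0.167 and 0.0904). One list result in mouse is not reported here.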

Additional observations from a re-analysis of the deposited data

How the results depend on the processing

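Expression was recomputed with a pseudocount of 0.1, without the filter, with a mean-FPKM filter of 5, from TPM, after scaling by size factors, with limma-voom, with the replicate block, with each library left out in turn and, for mouse, in fits of only the 2 time points compared. The count of called mouse members other than Mmp3 stayed at 5 for P3 and P7 against E18.5, 1 for P7 against P1 and 0 for P3 against P1 and P7 against P3 in all 16 alternatives, the replicate block included, while Mmp3 for P3 against P1 was called without P1 replicate 1 and in no other alternative. For P1 against E18.5 it was 5 or 6, the sixth being Mmp13 (lower) with the pseudocount of 0.1 (log2 FC −1.09), limma-voom (−1.11) and without E18.5 replicate 2 or P1 replicate 2 (range over left-out libraries −1.13 to −0.54). With TSA the count went from 0 to 1 (Mmp9) with the replicate block and without replicate 3 of both groups, and ranged from 0 to 1 over left-out libraries. Mmp2 with TSA ranged from −0.34 to 0.0626 over left-out libraries and Mmp9 at P7 against E18.5 was 0.0353 with limma-voom. The causes were not tested. Of the genes called against E18.5 in P1, P3 and P7, the share that was higher came to 62.5%, 59.4% and 55.7%, against 77.3%, 74.4% and 68.1% with TPM and 50.7%, 49.9% and 49.2% with size factors.

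Over all tested genes, calls for P3 against P1 numbered 2, or 0 to 35 over left-out libraries (35 without P1 replicate 1), 0 without the filter, with TPM, the replicate block and fits of the 2 time points, and 1 with the filter of 5. For P7 against P3 they numbered 496, or 23 to 542 over left-out libraries (23 and 26 without either P3 library, 106 without P7 replicate 2) and 15 without the filter. With TSA they numbered 290, or 33 to 458 over left-out libraries, 79 with the filter of 5 and 549 without replicate 3 of both groups.

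Mouse replicate numbers did not pair the samples (correlations of deviations −0.10 to 0.17), and the replicate block changed no mouse call of a member. Members with a promoter peak numbered 0, 0, 6 and 2 with peaks above the median score of each list (21.4%, 18.4%, 49.7% and 43.2% of genes), and 3, 0, 1 and 1 with lists of equal length (35.5%, 20.5%, 24.6% and 29.8%), for E18.5, P1, P3 and P7 in turn. Over left-out libraries the counts were 3 at E18.5, 1 to 5 at P1, 7 to 8 at P3 and 6 to 7 at P7, the 5 coming without P1 replicate 2. Windows of 1 kb and 5 kb gave 3, 1, 7 and 6 and 4, 1, 7 and 7. The ratio of MMPs to TIMPs at P7 ranged from 1.04 to 1.25. Depth limits Mmp3 and Timp4, which rest on few fragments at E18.5.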
